A study of Homo sapiens with 96 samples.

Results

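Histone deacetylases remove acetyl groups from lysines, and 10 of the zinc-dependent genes of this family (HDAC1, HDAC2, HDAC3, HDAC4, HDAC5, HDAC6, HDAC7, HDAC8, HDAC10 and HDAC11) had alternative splicing events in A549 cells, an established human lung adenocarcinoma line. Their members here are all events that carry 1 of these 10 gene symbols in the 8 deposited event tables, and they number 442 of 239131 events, which lie on 253 distinct alternative exons, introns or splice-site segments. Poly(A)-RNA had been sequenced from cells treated with GSK591, which inhibits PRMT5, with MS023, which inhibits Type I PRMTs, or with both. GSK591 and MS023 were each given at 1 µM for 2, 4 or 7 days, and the co-treatment, 1 µM of each, for 2 or 4 days. DMSO at 0.01% was given for 4 or for 7 days, so that there were 10 groups of 3 libraries, 30 in all. No DMSO group of 2 days was used here, and the 2-day and 4-day inhibitor groups were both set against DMSO 4 days. All groups are 1 cell line, nothing in the sources used here says whether the 3 libraries of a group are separate cultures, and p-values therefore measure the spread between these libraries, which may be technical. Libraries are called a, b and c by their place in the tables, which carries no pairing between groups.

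PRMTs methylate arginines. Type I enzymes form asymmetric dimethylarginine, and PRMT5 forms symmetric dimethylarginine, among others on the Sm proteins of the spliceosome. Class I histone deacetylases (HDAC1, HDAC2, HDAC3 and HDAC8) are mainly nuclear, and the first 3 act as the catalytic subunits of corepressor complexes. Class IIa enzymes (HDAC4, HDAC5 and HDAC7) have weak catalytic activity of their own and bind MEF2 transcription factors, class IIb holds the tubulin deacetylase HDAC6 and the polyamine deacetylase HDAC10, and HDAC11 is the class IV enzyme. An intron kept in a polyadenylated RNA is called a retained intron, and such transcripts often stay in the nucleus or carry an early stop codon.

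Each event was measured by its inclusion level Ψ, the length-corrected share of reads from the form that includes the exon, intron or longer segment, which runs from 0 to 1. ΔΨ is the mean Ψ of the inhibitor group minus that of DMSO. An event was tested where each of the 6 libraries compared had at least 10 reads, with a quasi-binomial model of the inclusion and skipping reads whose dispersion was moderated with limma, and was called at an adjusted p under 0.05 (Benjamini-Hochberg over the events of its type). Adjusted p-values below are from this model, values after ± are SDs over n = 3 libraries unless named otherwise, and log2 odds ratios of inclusion are given ± SE. Reads on retained-intron events of all genes ranged from 3118222 to 5224249 per library, and those on the member introns from 2471 to 5596. Replicate libraries differed by more than sampling noise in every pair (chi-square per degree of freedom, 1.88 to 4.72), so none was counted as a duplicate. The epithelial genes KRT8 and KRT18 had 22 and 8 events, with up to 61348 and 40230 reads per library at the median, while no event was listed for KRT19, for the leukocyte genes PTPRC and CD3E or for the endothelial PECAM1, and the only event of VWF had 0 reads.

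Of the 442 events 382 were tested, and 46 were called in at least 1 of the 8 comparisons with DMSO, where 14.3% of the tested events of all genes were. By type the called members were 26 of 218 tested skipped exons (all genes, 13.4%), 10 of 15 retained introns (52.1%), 5 of 123 mutually exclusive exons (11.1%), 3 of 9 alternative 5′ splice sites (29.7%) and 2 of 17 alternative 3′ splice sites (16.5%). HDAC7 and HDAC10 had 10 called events each (of 53 and 86 tested), HDAC6 8 (of 41), HDAC3 7 (of 34), HDAC1 4 (of 14), HDAC4 3 (of 28), HDAC8 3 (of 22) and HDAC11 1 (of 51). None was called among the 18 tested events of HDAC2 or the 35 of HDAC5. Events of 1 gene share exons and reads and are not independent of each other. These events made 91 calls against DMSO, of which 45 held whichever library was left out and 29 held with limma on log2 odds in place of the quasi-binomial model. The events named by the rule for each gene, with the retained introns, made 58 of the calls, of which 41 and 22 held, and the others made 33, of which 4 and 7 held. The 22 were all calls of HDAC3 intron 4 and HDAC6 intron 12, all those of HDAC10 intron 16 with GSK591 or co-treatment, those of HDAC10 intron 1 at 4 and 7 days, those of HDAC1 intron 11 except at 2 days of co-treatment, HDAC6 intron 14 with GSK591, HDAC4 exon 19, and the HDAC7 alternative 3′ splice site at 4 days of co-treatment. None of the 58 that belonged to HDAC6 intron 6, HDAC7 intron 24 or HDAC7 exons 9 and 2 held with limma.

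With GSK591, 8 of 188 tested events were called at 2 days, when 6.28% of all tested events of all genes were. The count was 11 of 231 at 4 days against 10% of all events, and 9 of 185 at 7 days against 7.31%. MS023 gave 2 of 209, 3 of 223 and 2 of 175 at 2, 4 and 7 days, and the shares over all genes were 2.24%, 2.96% and 3.79%. Co-treatment gave 25 of 235 at 2 days and 31 of 257 at 4 days, against 11.8% and 13.1% of all events. The members' shares lay below those of all genes in each of the 8 comparisons, so the number of calls does not set the family apart. Comparisons at 2 and 4 days share the DMSO 4 days libraries, and those at 7 days the DMSO 7 days libraries. Only 113 of the 442 member events were listed in all 8 comparisons, so the tested events differ between them.

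**Figure D1:**
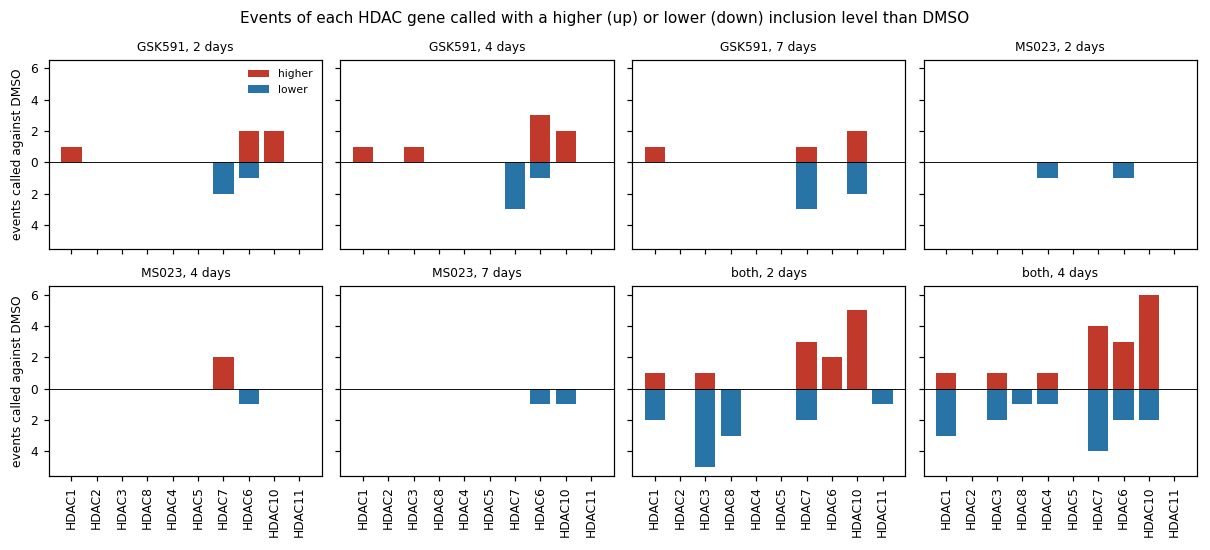
Number of called splicing events (y axis) for each histone deacetylase gene in each of the 8 comparisons with DMSO, with bars above 0 for events with higher inclusion and below 0 for those with lower inclusion. Co-treatment has the most calls, 25 of 235 tested events at 2 days and 31 of 257 at 4 days (all genes, 11.8% and 13.1%). HDAC2 and HDAC5 have none.

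Calls differed in direction by type. Retained introns were called higher with GSK591 in 5 of 15 at 2 days (25.7% of the introns of all genes), 7 at 4 days (33.3%) and 3 at 7 days (21%), and with co-treatment in 7 (29.5%) and 8 (33%). Called lower were 0, 0 and 1 with GSK591 (all genes, 2.61%, 3.97% and 5.87%) and none with co-treatment (5% and 5.87%). MS023 gave 0, 1 and 0 higher introns at 2, 4 and 7 days (all genes, 1.49%, 2.13% and 1.9%) and 1, 1 and 2 lower ones (4.33%, 7.02% and 9.62%). Skipped exons went mostly the other way, with 13 of 14 called exon events lower after 2 days of co-treatment and 12 of 14 after 4 days. Over all genes 7559 of 9080 and 7080 of 9713 called exon events were lower in the same comparisons. Groups without overlap made up 24 of 143 and 19 of 150 tested member exon events there (all genes, 17.9% and 19%). With GSK591 they were 20 of 115, 14 of 140 and 13 of 108 at 2, 4 and 7 days (13.6%, 15.8% and 14.2%).

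All 15 member introns were listed in all 8 tables. With GSK591 their median ΔΨ was 0.0383, 0.0673 and 0.0305 after 2, 4 and 7 days, and the introns of all genes had medians of 0.0150, 0.0196 and 0.00762. With MS023 it was -0.0102, -0.0133 and -0.0241 at 2, 4 and 7 days, against -0.00316, -0.00404 and -0.00596 for all introns. Co-treatment gave 0.0285 at 2 days and 0.0311 at 4 days, against 0.0161 at both times. The direction of these medians was that of all introns at each time. Groups without overlap were common among the retained introns of all genes. With GSK591 they made up 37%, 45.2% and 37.8% at 2, 4 and 7 days (members, 7, 9 and 5 of 15). Co-treatment gave 42.7% and 45.9% (7 and 8), and MS023 19.2%, 22.5% and 24.8% (3, 4 and 5).

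**Figure D2:**
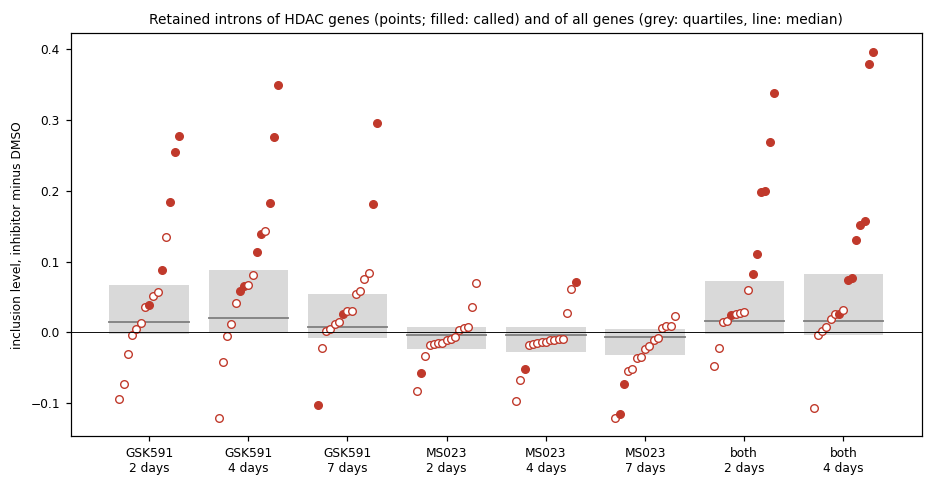
ΔΨ (y axis) of the 15 member introns in each comparison with DMSO (x axis), with called introns marked, and beside them the quartiles of all tested retained introns. Member introns lie mostly above 0 with GSK591 and with co-treatment and mostly below 0 with MS023, as the quartiles of all introns do.

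The member introns, called or not, begin with GT and end with AG in 15 of 15 cases, where 96.4% of the 4928 retained introns of all genes do. Their median length was 283 bases (68 to 1338), against 260.0 for all, and their median GC content 59.14% against 57.38%. The letters GTAAG opened 7 of the 15 introns and 15.2% of all retained introns, and GTGAG opened 2 of the 15 and 30.7% of all. Of the introns opened by GTAAG, HDAC10 intron 18, HDAC3 intron 8, HDAC6 intron 21 and HDAC7 intron 16 were not called against DMSO. Among the 6 introns printed below, only HDAC10 intron 1 opens with these letters. In a GENCODE annotation lifted to hg19, 14 of the 15 are introns of the gene's canonical transcript, all between its start and stop codons, and reading on from the exon before met an in-frame stop in 13 of these 14. Lengths were a multiple of 3 in 3 of the 14. The 6 introns to which most of the values belong are shown here so that their splice sites can be set beside their levels, the 3 shortest of them whole and the others by both ends, as read from the hg19 genome on the strand of the gene. Capitals mark the first and last 2 intron bases.

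HDAC10 intron 1, chr22:50689335-50689402, minus strand: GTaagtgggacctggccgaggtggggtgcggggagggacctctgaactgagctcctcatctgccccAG
HDAC10 intron 16, 5′ end with 9 exon bases, chr22:50685087-50685116, minus strand: ccatgacggGTaggactctcaggtcttgca
HDAC10 intron 16, 3′ end with 9 exon bases, chr22:50684797-50684826, minus strand: tatgcacctgtgtcctggaAGgaggagtct
HDAC6 intron 12, chrX:48673148-48673240, plus strand: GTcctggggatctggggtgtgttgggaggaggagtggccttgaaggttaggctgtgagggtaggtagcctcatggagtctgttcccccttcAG
HDAC6 intron 6, 5′ end with 9 exon bases, chrX:48664070-48664099, plus strand: ggttcacagGTgaaggcttgggagccttgt
HDAC6 intron 6, 3′ end with 9 exon bases, chrX:48664754-48664783, plus strand: tcatctcccatctgtgtctAGcctagaata
HDAC3 intron 4, chr5:141009484-141009610, minus strand: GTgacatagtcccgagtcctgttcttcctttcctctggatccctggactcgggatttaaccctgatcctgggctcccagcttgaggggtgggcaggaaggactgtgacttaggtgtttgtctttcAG
HDAC1 intron 11, 5′ end with 9 exon bases, chr1:32797399-32797428, plus strand: gcatctcgaGTgagacccagacctagagcc
HDAC1 intron 11, 3′ end with 9 exon bases, chr1:32797670-32797699, plus strand: atgcttcccactccctcccAGtctgctcct

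HDAC10 held the largest ΔΨ among the member introns in the comparisons with DMSO. Intron 1 (chr22:50689335-50689402, 68 bases, printed whole above) had Ψ of 0.562, 0.364 and 0.329 in DMSO 4 days and of 0.367, 0.464 and 0.416 in DMSO 7 days. GSK591 libraries read 0.568, 0.654 and 0.864 at 2 days, 0.735, 0.803 and 0.763 at 4 days and 0.737, 0.671 and 0.726 at 7 days. All 9 lay above every library of their DMSO group, and retention rose from 0.418 ± 0.125 to 0.767 ± 0.0345 at 4 days (log2 odds ratio 2.24 ± 0.51, adjusted p = 5.73e-05) and from 0.416 ± 0.0481 to 0.712 ± 0.0353 at 7 days (1.80 ± 0.39, adjusted p = 3.72e-05). At 2 days the rise to 0.695 ± 0.153 was called (adjusted p = 0.0193) but the call was lost without library b of DMSO 4 days (0.211), library c of DMSO 4 days (0.111), library b of GSK591 2 days (0.0537) or library c of GSK591 2 days (0.169), values in brackets being the adjusted p without that library. Co-treatment read 0.625, 0.747 and 0.896 at 2 days and 0.827, 0.822 and 0.795 at 4 days, again above every DMSO library, with adjusted p = 0.00091 and 5.75e-07. MS023 read 0.402 ± 0.0665, 0.401 ± 0.0303 and 0.381 ± 0.0436 at 2, 4 and 7 days and was not called. Depth at this intron was 36 to 207 reads per library.

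Intron 16 of HDAC10 (chr22:50684806-50685107, 302 bases, ends printed above) was called higher with GSK591 at all 3 times and lower with MS023 at 7 days only. Its Ψ was 0.127, 0.201 and 0.148 in DMSO 4 days and 0.258, 0.253 and 0.209 in DMSO 7 days. With GSK591 it was 0.347, 0.458 and 0.435 at 2 days, 0.411, 0.478 and 0.416 at 4 days and 0.417, 0.430 and 0.416 at 7 days. The groups did not overlap at any time, and retention rose with ΔΨ of 0.255, 0.276 and 0.181 (adjusted p = 0.000272, 8.34e-07 and 0.00048). Co-treatment read 0.505, 0.391 and 0.385 at 2 days, within the range of the GSK591 libraries but for library a, and 0.553, 0.547 and 0.511 at 4 days (adjusted p = 4.07e-06 and 2.58e-11 against DMSO), and was not called against GSK591 alone at either time. MS023 at 7 days read 0.143, 0.128 and 0.103, all below the 3 DMSO libraries, and the fall (ΔΨ -0.115) was called (adjusted p = 0.0157) but not without library a of DMSO 7 days (0.103) or library c of MS023 7 days (0.0942). At 2 and 4 days MS023 read 0.144 ± 0.0222 and 0.145 ± 0.0669 and was not called. DMSO 7 days itself lay 0.0815 above DMSO 4 days at this intron, a difference that was not called. Both introns have an in-frame stop at base 2.

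The other HDAC10 introns, which were chosen after their values were seen, did not form 1 pattern. Intron 11 (chr22:50686722-50686794, 73 bases) read 0.240, 0.273 and 0.161 in DMSO 4 days and 0.331, 0.305 and 0.493 after 4 days of co-treatment, and the rise (adjusted p = 0.0437) was lost without library a of DMSO 4 days (0.0916), library c of DMSO 4 days (0.187) or library c of GSK591 and MS023 4 days (0.27). At 2 days of co-treatment its call (adjusted p = 0.0468) was likewise lost without library a of DMSO 4 days (0.0835), library c of DMSO 4 days (0.162), library a of GSK591 and MS023 2 days (0.262) or library c of GSK591 and MS023 2 days (0.339), and co-treatment library b, at 0.197, lay inside the DMSO range. Intron 15 (chr22:50685165-50685303, 139 bases) went down with 7 days of GSK591, from 0.0635, 0.222 and 0.210 to 0.0587, 0.0709 and 0.0593, with overlapping groups. That fall (adjusted p = 0.0143) was lost without library b of DMSO 7 days (0.173) or library c of DMSO 7 days (0.118). Intron 18 (chr22:50684257-50684338, 82 bases) lay between 0.296 and 0.448 in every group mean and was never called. All 5 introns overlap an annotated transcript model of MAPK12 on the same strand, and introns 15, 16 and 18 also an antisense long non-coding RNA, and whether the counting used strand is not given in the sources used here, so reads of these genes cannot be told apart.

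HDAC6, the cytoplasmic tubulin deacetylase, had 4 retained introns. Intron 12 (chrX:48673148-48673240, 93 bases, printed above) read 0.170, 0.200 and 0.202 in DMSO 4 days. With GSK591 it read 0.302, 0.428 and 0.396 at 2 days and 0.336, 0.399 and 0.385 at 4 days, and with co-treatment 0.408, 0.357 and 0.406 and 0.346, 0.398 and 0.3004. All 12 treated libraries lay above the 3 of DMSO, which these treated groups share. Retention rose by 0.184 and 0.183 with GSK591 (adjusted p = 0.00129 and 0.000168) and by 0.199 and 0.158 with co-treatment (adjusted p = 9.93e-05 and 0.000463). At 7 days GSK591 read 0.328 ± 0.0276 against 0.244 ± 0.0325 in DMSO and was not called (adjusted p = 0.163). MS023 gave 0.194 ± 0.0110, 0.180 ± 0.0509 and 0.192 ± 0.0274 and no call.

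Intron 6 of HDAC6 (chrX:48664079-48664774, 696 bases, ends printed above), chosen after its values were seen, was called with each inhibitor and in opposite directions. DMSO read 0.0804, 0.120 and 0.0907 at 4 days and 0.0923, 0.122 and 0.142 at 7 days. MS023 read 0.0411, 0.0356 and 0.0425 at 2 days, 0.0290, 0.0444 and 0.0620 at 4 days and 0.0438, 0.0305 and 0.0651 at 7 days. The 9 MS023 libraries lay below their DMSO groups without overlap, and retention fell with ΔΨ of -0.0573, -0.0519 and -0.0725 (adjusted p = 0.000271, 0.000776 and 4.24e-05). The 4-day call was lost without library b of DMSO 4 days (0.0692). GSK591 read 0.225, 0.166 and 0.164 at 2 days and 0.129, 0.162 and 0.197 at 4 days, all above DMSO 4 days, and retention rose by 0.0879 and 0.0656 (adjusted p = 0.00449 and 0.00616). These rises were lost without library a of DMSO 4 days (0.0619) at 2 days and without library c of GSK591 4 days (0.0867) at 4 days. With limma no call of this intron against DMSO held, with adjusted p of 0.242, 0.242 and 0.146 for MS023 at 2, 4 and 7 days. At 7 days GSK591 read 0.149 ± 0.0278 and was not called (adjusted p = 0.365), nor was co-treatment, at 0.126 ± 0.0247 and 0.123 ± 0.00897.

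Intron 14 of HDAC6 (chrX:48673459-48673790, 332 bases) rose from 0.282, 0.253 and 0.243 in DMSO to 0.441, 0.337 and 0.419 at 4 days of GSK591 without overlap (adjusted p = 0.000792). Co-treatment read 0.317, 0.367 and 0.425 at 2 days and 0.354, 0.301 and 0.352 at 4 days (adjusted p = 0.01 and 0.0377). Its 2-day call was lost without library c of GSK591 and MS023 2 days (0.0842), and its 4-day call without library b of DMSO 4 days (0.0984), library c of DMSO 4 days (0.122), library a of GSK591 and MS023 4 days (0.138) or library c of GSK591 and MS023 4 days (0.0948). Intron 21 (chrX:48676517-48676626, 110 bases, chosen after its values were seen) was not called against DMSO and had group means of 0.0638 to 0.171. An alternative 5′ splice site event of 793 bases (chrX:48664079-48664871) covers intron 6 and the whole exon after it. Its short form leaves out that exon too, so its Ψ does not measure retention of intron 6. It shares reads with the skipping of that exon, given further below, and is not a separate result. Its Ψ was 1.00, 0.952 and 1.00 in DMSO and 0.962, 0.826 and 0.740 at 4 days of co-treatment, with overlapping groups, and the call (adjusted p = 0.0436) was lost without library a of DMSO 4 days (0.116), library c of DMSO 4 days (0.154), library b of GSK591 and MS023 4 days (0.0959) or library c of GSK591 and MS023 4 days (0.25).

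HDAC3 is the catalytic subunit of the NCOR and SMRT corepressor complexes. Its intron 4 (chr5:141009484-141009610, 127 bases, printed above) read 0.123, 0.100 and 0.0966 in DMSO 4 days. GSK591 read 0.194, 0.195 and 0.271 at 4 days, and co-treatment 0.190, 0.183 and 0.194 at 2 days and 0.260, 0.227 and 0.226 at 4 days. All 9 treated libraries lay above the 3 of DMSO, which these treated groups share. Retention rose from 0.107 ± 0.0143 to 0.220 ± 0.0444 with GSK591 (adjusted p = 0.000142) and to 0.238 ± 0.0191 at 4 days of co-treatment (log2 odds ratio 1.40 ± 0.29, adjusted p = 5.12e-06). The rise at 2 days of co-treatment had adjusted p = 0.00963. GSK591 gave 0.158 ± 0.0169 at 2 days and, against 0.126 ± 0.0172 in DMSO, 0.185 ± 0.0430 at 7 days, neither of which was called (adjusted p = 0.0882 and 0.123). Intron 8 (chr5:141007755-141008125, 371 bases), chosen after its values were seen, had group means of 0.0247 to 0.0496 and was not called against DMSO.

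HDAC1, a subunit of the SIN3, NuRD and CoREST complexes, had 1 retained intron, at a low level. Intron 11 (chr1:32797408-32797690, 283 bases, ends printed above) read 0.0236, 0.0283 and 0.0227 in DMSO 4 days and 0.0193, 0.0138 and 0.0232 in DMSO 7 days. GSK591 read 0.0591, 0.0522 and 0.0783 at 2 days, 0.0929, 0.0734 and 0.0823 at 4 days and 0.0494, 0.0501 and 0.0346 at 7 days. No GSK591 library overlapped its DMSO group, and retention rose by 0.0383, 0.0580 and 0.0259 (adjusted p = 0.000138, 7e-09 and 0.000595). On the odds scale these were log2 ratios of 1.36 ± 0.32, 1.80 ± 0.31 and 1.29 ± 0.33 beside 1.57 ± 0.55, 2.24 ± 0.51 and 1.80 ± 0.39 for HDAC10 intron 1, whose ΔΨ was 0.277, 0.349 and 0.296. Co-treatment read 0.0559, 0.0321 and 0.0595 and 0.0559, 0.0420 and 0.0560 (adjusted p = 0.00468 and 0.000664), and MS023, at 0.0153 ± 0.00458, 0.0153 ± 0.00585 and 0.0109 ± 0.00204, was not called. Each library had 313 to 826 reads here.

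Of the 3 retained introns of HDAC7, chosen after their values were seen, only intron 24 (chr12:48178001-48179169, 1169 bases) was called against DMSO. It read 0.160, 0.192 and 0.183 in DMSO 4 days, 0.254, 0.261 and 0.236 at 4 days of MS023 and 0.209, 0.279 and 0.270 at 4 days of co-treatment. Both treated groups lay above DMSO without overlap (adjusted p = 0.000899 and 0.000162), and this was the sole member intron called higher with MS023. GSK591 at 4 days read 0.220 ± 0.0284 and was not called (adjusted p = 0.0812). This intron overlaps an antisense long non-coding RNA, whose reads cannot be told apart from it. Intron 16 stayed between group means of 0.0562 and 0.104, and a segment within intron 13 (chr12:48185788-48186320) between 0.872 and 0.972.

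**Figure D3:**
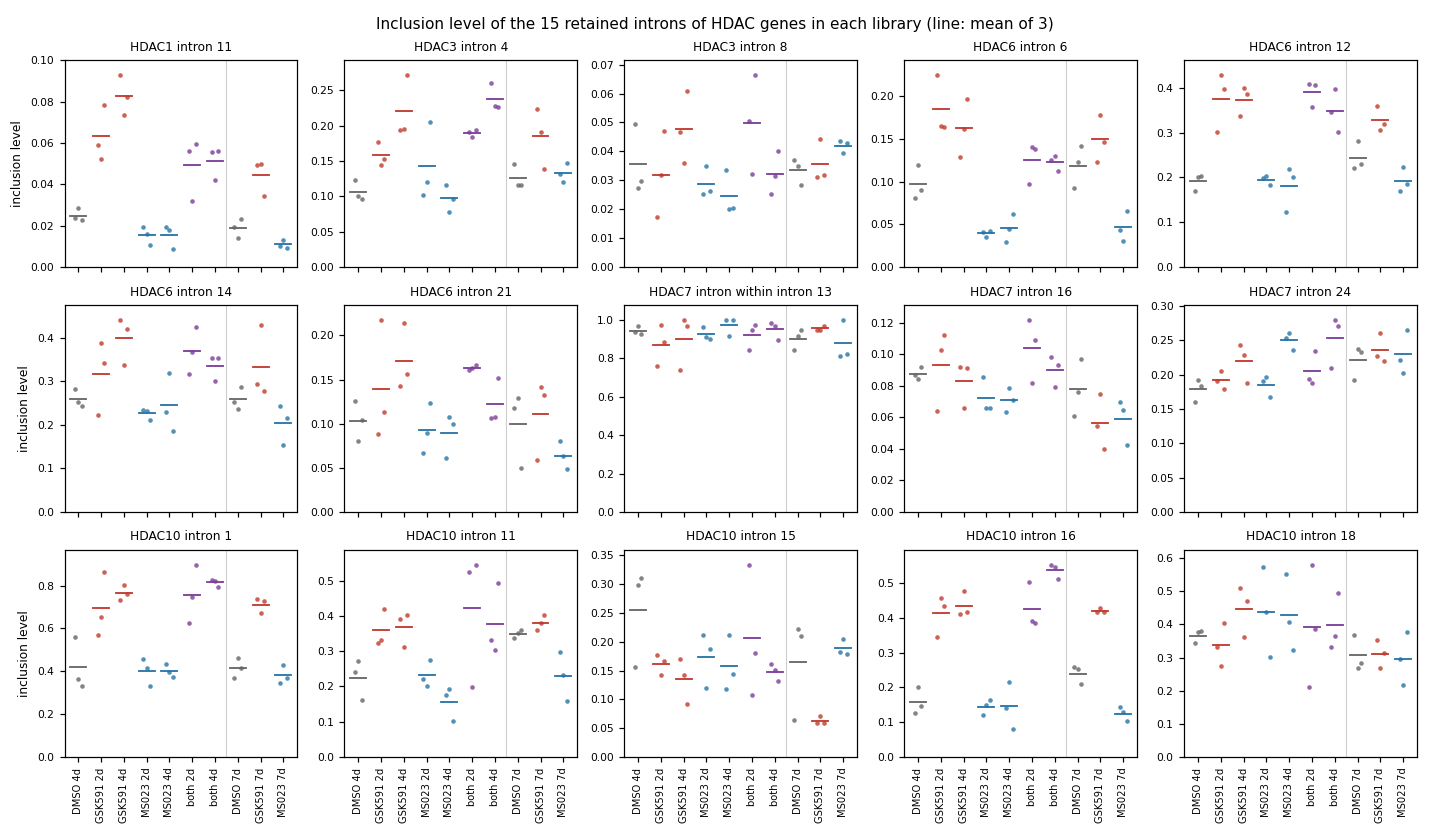
Ψ (y axis) of each of the 15 member introns, 1 panel each, in the 3 libraries of every group (x axis), with points for libraries and a line for the group mean. HDAC10 introns 1 and 16, HDAC6 intron 12 and HDAC1 intron 11 lie higher with GSK591 and with co-treatment, and HDAC6 intron 6 lies lower with MS023.

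The exon events turned mainly on HDAC7, a class IIa enzyme. Its exons 9 and 2 are shown with the exon in capitals and 2 intron bases on each side. Exon 9 has 111 bases, or 37 codons, and exon 2 has 51 bases, or 17 codons, so that skipping either keeps the reading frame.

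HDAC7 exon 9, chr12:48189687-48189801, minus strand: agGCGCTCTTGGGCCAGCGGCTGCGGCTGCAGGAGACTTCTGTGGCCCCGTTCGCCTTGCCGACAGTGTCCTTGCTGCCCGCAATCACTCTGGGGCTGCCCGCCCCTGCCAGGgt
HDAC7 exon 2, chr12:48196005-48196059, minus strand: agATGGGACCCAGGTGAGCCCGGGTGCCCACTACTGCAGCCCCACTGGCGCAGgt

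HDAC7 exon 9 (chr12:48189689-48189799) was included less with GSK591 and with co-treatment. Its Ψ was 0.277, 0.261 and 0.245 in DMSO 4 days and 0.309, 0.364 and 0.309 in DMSO 7 days. GSK591 read 0.0946, 0.0968 and 0.0503 at 2 days, 0.102, 0.0814 and 0.124 at 4 days and 0.154, 0.240 and 0.124 at 7 days. Every treated library lay below its DMSO group, and inclusion fell from 0.261 ± 0.0159 to 0.0806 ± 0.0262 at 2 days (log2 odds ratio -1.98 ± 0.24, adjusted p = 3.98e-16), with adjusted p = 1.59e-13 at 4 days and 3.37e-05 at 7 days. Co-treatment read 0.0700, 0.0679 and 0.0690 at 2 days and 0.0562, 0.0954 and 0.105 at 4 days, and inclusion fell with ΔΨ of -0.192 and -0.176 (adjusted p = 1.72e-19 and 2.06e-18). MS023 lay on the other side of DMSO at 4 days, at 0.319, 0.429 and 0.284, and this rise (adjusted p = 0.0386) was lost without library a of DMSO 4 days (0.052), library b of DMSO 4 days (0.125), library c of DMSO 4 days (0.166) or library b of MS023 4 days (0.621). At 2 and 7 days MS023 read 0.267 ± 0.0203 and 0.370 ± 0.0363 and was not called. Limma on the log2 odds called none of the GSK591 or co-treatment changes of this exon, with adjusted p of 0.0643 to 0.366.

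HDAC7 exon 2 (chr12:48196007-48196057) was also included less, but differed between the control groups as well. DMSO 4 days read 0.737, 0.755 and 0.774 and DMSO 7 days 0.507, 0.618 and 0.633, without overlap (adjusted p = 0.00369, and not called without library a of DMSO 7 days (0.229)). GSK591 read 0.584, 0.526 and 0.552 at 2 days and 0.665, 0.508 and 0.615 at 4 days, and co-treatment 0.470, 0.4996 and 0.278 and 0.596, 0.329 and 0.493. These lay below DMSO 4 days in every library, and inclusion fell with ΔΨ of -0.201 and -0.160 for GSK591 (adjusted p = 0.000562 and 0.00492) and of -0.340 and -0.283 for co-treatment (adjusted p = 4.35e-10 and 2.43e-08). The 4-day GSK591 call was lost without library b of GSK591 4 days (0.108). At 7 days GSK591 read 0.546 ± 0.0465 and MS023 0.528 ± 0.0187, and neither was called against DMSO 7 days.

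An alternative 3′ splice site in intron 13 of HDAC7 (chr12:48185788-48186452, 665 bases) had the smallest adjusted p of the member events at 4 days of co-treatment. Its Ψ was 0.111, 0.104 and 0.0861 in DMSO 4 days, 0.212, 0.197 and 0.168 at 2 days of co-treatment and 0.287, 0.296 and 0.351 at 4 days. The groups did not overlap, as in 3 of 11 and 3 of 12 tested member events of this type (all genes, 19.1% and 21.7%). This Ψ rose from 0.100 ± 0.0129 to 0.192 ± 0.0221 (adjusted p = 2.03e-07) and to 0.312 ± 0.0348 (log2 odds ratio 2.02 ± 0.18, adjusted p = 8.07e-29). GSK591 alone read 0.125 ± 0.0155 at 2 days and 0.125 ± 0.0247 at 4 days, uncalled, and rose at 7 days from 0.107, 0.138 and 0.122 in DMSO to 0.249, 0.258 and 0.209 (adjusted p = 3.57e-07). With limma the calls at 2 days of co-treatment and 7 days of GSK591 were lost (adjusted p = 0.24 and 0.222), and that at 4 days of co-treatment held (0.0465). MS023 read 0.0839 ± 0.00709, 0.0877 ± 0.0116 and 0.0842 ± 0.0213 and was not called. The same place holds a skipped exon of 132 bases (chr12:48186321-48186452), named after its values were seen, whose Ψ was 0.0577, 0.0274 and 0.0361 in DMSO and 0.157, 0.154 and 0.214 at 4 days of co-treatment (adjusted p = 1.84e-11, with limma 0.0593). Both events share reads. The 665 bases are this exon and the segment after it that is listed as a retained intron (chr12:48185788-48186320). The long form is thus the exon with that intron kept, and its Ψ does not separate use of the upstream site from retention.

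Other HDAC7 calls, named after their values were seen, were smaller or rested on fewer comparisons. The mutually exclusive exon of 92 bases at chr12:48189990-48190081 fell from 0.627, 0.634 and 0.633 in DMSO to 0.501, 0.505 and 0.483 at 4 days of GSK591 (adjusted p = 0.000308) and to 0.514, 0.536 and 0.506 with co-treatment (adjusted p = 0.00547). Both treated groups lay below DMSO without overlap. A 5′ splice-site segment of 41 bases (chr12:48179494-48179534) rose with co-treatment from 0.0227 ± 0.00886 to 0.0684 ± 0.00680 at 2 days and 0.0616 ± 0.00622 at 4 days (adjusted p = 0.00771 and 0.0106). Its 2-day call was lost without library a of DMSO 4 days (0.0584) and its 4-day call without library a of DMSO 4 days (0.0798).

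In the comparisons with DMSO, exons of the class I genes were called with co-treatment only. HDAC3 exon 12 (chr5:141005580-141005638, 59 bases) was included at 0.988, 0.973 and 0.988 in DMSO 4 days, at 0.865, 0.916 and 0.943 after 2 days and at 0.933, 0.912 and 0.894 after 4 days of co-treatment. The groups did not overlap, and inclusion fell with ΔΨ of -0.0749 and -0.0698 (adjusted p = 4.66e-05 and 4.82e-05). GSK591 alone read 0.987 ± 0.00797 and 0.956 ± 0.0385 at 2 and 4 days and MS023 0.976 ± 0.0128 and 0.967 ± 0.00941, and none of these was called. This exon overlaps an antisense long non-coding RNA. HDAC3 exon 3 (chr5:141014378-141014520, 143 bases) read 0.864, 0.917 and 0.855 in DMSO and 0.719, 0.818 and 0.794 at 4 days of co-treatment, and its fall (adjusted p = 0.00613) was lost without library b of DMSO 4 days (0.0742) or library a of GSK591 and MS023 4 days (0.243). Neither exon has a length that is a multiple of 3.

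HDAC8, a class I enzyme that deacetylates the cohesin subunit SMC3, had 3 called exons, all lower after 2 days of co-treatment. Exon 6 (chrX:71710779-71710856, 78 bases, 26 codons) read 0.810, 0.836 and 0.745 in DMSO and 0.582, 0.770 and 0.663 with co-treatment, with overlapping groups. Its call (adjusted p = 0.0482) was lost without library a of DMSO 4 days (0.127), library b of DMSO 4 days (0.228), library a of GSK591 and MS023 2 days (0.428) or library c of GSK591 and MS023 2 days (0.115), and it overlaps another annotated protein-coding model on the same strand. A further exon of 131 bases (chrX:71788604-71788734), named after its values were seen, fell from 0.934, 0.960 and 0.926 to 0.829, 0.747 and 0.824 at 2 days and 0.838, 0.780 and 0.852 at 4 days of co-treatment (adjusted p = 0.00557 and 0.0284). All 6 treated libraries lay below DMSO, but the 2-day call was lost without library b of GSK591 and MS023 2 days (0.116) and the 4-day call without library a of DMSO 4 days (0.054), library b of DMSO 4 days (0.127), library a of GSK591 and MS023 4 days (0.0516) or library b of GSK591 and MS023 4 days (0.198). HDAC1 had 3 called exons, named after their values were seen, which left DMSO levels near 1 by small steps. The largest, of 93 bases (chr1:32794669-32794761), went from 0.988 ± 0.00141 to 0.959 ± 0.0204 at 2 days (adjusted p = 0.00552, lost without library b of GSK591 and MS023 2 days (0.207)), and the other two had ΔΨ no lower than -0.0188. Each of the other calls of these 3 exons was lost without at least 1 library.

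Some called exons, named after their values were seen, border a retained intron and share its reads. The HDAC6 exon of 66 bases just before intron 12 (chrX:48673082-48673147) fell at 2 days of GSK591 from 0.990, 0.991 and 1.00 in DMSO to 0.963, 0.884 and 0.935 (adjusted p = 0.0443), without overlap, and the call was lost without library a of DMSO 4 days (0.0955), library b of DMSO 4 days (0.113), library c of DMSO 4 days (0.157), library b of GSK591 2 days (0.28) or library c of GSK591 2 days (0.0748). The exon of 97 bases just after HDAC6 intron 6 (chrX:48664775-48664871) went from 1.00, 0.987 and 1.00 to 0.989, 0.947 and 0.921 at 4 days of co-treatment, with overlapping groups (adjusted p = 0.0429, lost without library a of DMSO 4 days (0.147), library c of DMSO 4 days (0.179), library b of GSK591 and MS023 4 days (0.104) or library c of GSK591 and MS023 4 days (0.274)). Both exons stayed at 0.884 or above in every library of these comparisons. The HDAC7 exon of 139 bases just after intron 24 (chr12:48177862-48178000) was at 1 in all 3 DMSO 7 days libraries and at 0.927, 0.987 and 0.976 after 7 days of GSK591 (adjusted p = 0.00348, lost without library a of GSK591 7 days (0.157)). A further HDAC6 exon of 134 bases (chrX:48675733-48675866) fell at 4 days of GSK591 from 0.992, 0.968 and 0.982 to 0.836, 0.939 and 0.943 (adjusted p = 0.0225, lost without library a of DMSO 4 days (0.134), library c of DMSO 4 days (0.0634) or library a of GSK591 4 days (0.359)), also without overlap. HDAC3 had an exon of 80 bases (chr5:141005252-141005331) that fell at 2 days of co-treatment from 0.940, 0.969 and 0.942 to 0.881, 0.891 and 0.797 (adjusted p = 0.0158, lost without library b of DMSO 4 days (0.11) or library c of GSK591 and MS023 2 days (0.16)), and both of its other newly named exons, of 65 and 56 bases, fell with ΔΨ of -0.0215 and -0.0471. Without library c of GSK591 and MS023 2 days the first of these was lost (0.0501), and the second was lost without library b of DMSO 4 days (0.104) or library a of GSK591 and MS023 2 days (0.165).

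HDAC10 exon calls rested on few reads, and HDAC10 intron 1 had a similar minimum depth. The mutually exclusive exon of 96 bases at chr22:50687532-50687627 read 0.901, 0.607 and 0.571 in DMSO 4 days, 0.976, 0.924 and 1.00 at 2 days and 0.914, 0.888 and 0.927 at 4 days of co-treatment, on 37 to 142 reads per library. DMSO library a lay near the treated libraries while b and c lay far below. The rise was called at both times (adjusted p = 0.00196 and 0.00439), and the 4-day call was lost without library b of DMSO 4 days (0.0762) or library c of DMSO 4 days (0.0624). A skipped exon of 97 bases (chr22:50688856-50688952), named after its values were seen, fell at 7 days of GSK591 from 0.745, 0.781 and 0.869 to 0.454, 0.669 and 0.609 (adjusted p = 0.0061), without overlap, and the call was lost without library c of DMSO 7 days (0.108) or library a of GSK591 7 days (0.15). The overlap with the MAPK12 model noted for the introns holds for these exons too.

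HDAC4, a class IIa enzyme, had an alternative 3′ splice site of 15 bases (chr2:240048376-240048390) that moved with co-treatment and also between the controls. Its Ψ was 0.232, 0.287 and 0.306 in DMSO 4 days and 0.517, 0.555 and 0.562 at 4 days of co-treatment, without overlap (adjusted p = 0.0121), and the call was lost without library a of DMSO 4 days (0.0581) or library c of GSK591 and MS023 4 days (0.057). DMSO 7 days read 0.621, 0.625 and 0.587, above every DMSO 4 days library (adjusted p = 0.00189), a difference at least as large as that of the co-treatment, though not called with limma (0.151) or with every library counted in the degrees of freedom (0.53). Exon 19 of HDAC4 (chr2:240009255-240009310, 56 bases) read 1.00, 0.941 and 1.00 in DMSO and 0.371, 0.522 and 0.326 at 4 days of co-treatment (adjusted p = 3.15e-06). Every treated library was far below DMSO, on only 17 to 29 reads per library. Among the other inhibitor tables the event was listed only for 2 days of MS023, below the read minimum. The same DMSO 4 days libraries were used where it was not listed, so its listing depended on the inhibitor libraries. The contrast with DMSO, nearly all inclusion, may therefore owe part of its size to that selection. A neighbouring exon of 108 bases (chr2:240011705-240011812), named after its values were seen, was called with 2 days of MS023 (adjusted p = 0.00434) from a single library, at 1.00, 0.367 and 1.00 against 1 in all 3 of DMSO, and was lost without that library.

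HDAC11 had 1 call, an exon of 101 bases (chr3:13524964-13525064) named after its values were seen, which read 1 in all 3 DMSO libraries and 0.665, 0.795 and 0.807 at 2 days of co-treatment (adjusted p = 0.0284), on 15 to 28 reads per library. That call was lost without library a of DMSO 4 days (0.106), library b of DMSO 4 days (0.101), library c of DMSO 4 days (0.0624) or library a of GSK591 and MS023 2 days (0.133). For HDAC2 and HDAC5, which had no call, the tested event with the most reads is given instead. HDAC2 exon 5 (chr6:114277177-114277315) was included at 1 in each DMSO 4 days library, over 1393 to 1724 reads, and at 1, 1 and 0.999 at 4 days of MS023. The HDAC5 mutually exclusive pair with its first exon at chr17:42165755-42165966 read 0.363, 0.425 and 0.498 in DMSO 4 days and 0.444, 0.459 and 0.465 at 4 days of co-treatment, with overlapping groups and no call. HDAC11 exon 9 (chr3:13545594-13545772), chosen by that rule too, was included at 1 in all DMSO 4 days libraries and at 0.931, 1.00 and 1.00 at 4 days of GSK591.

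**Figure D4:**
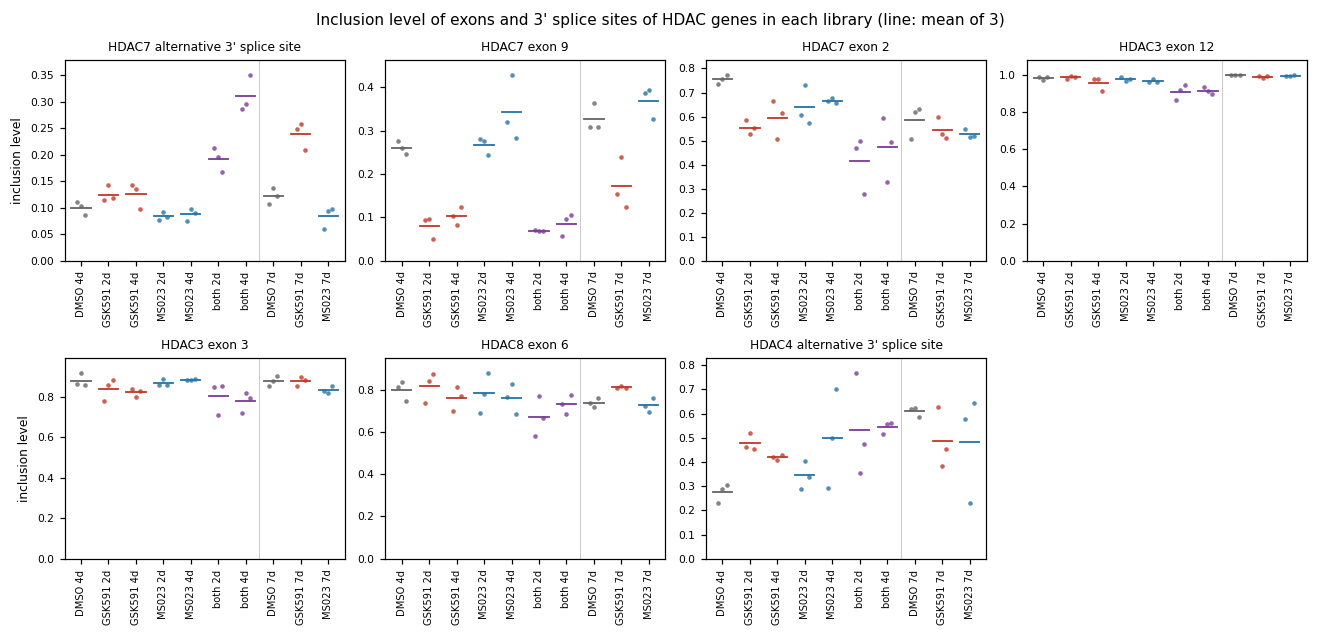
Ψ (y axis) of 7 exon and splice-site events in HDAC7, HDAC3, HDAC8 and HDAC4, 1 panel each, in the 3 libraries of every group (x axis), with points for libraries and a line for the group mean. HDAC7 exon 9 lies lower with GSK591 and with co-treatment than in DMSO, and the HDAC7 alternative 3′ splice site reaches its highest levels, 0.287 to 0.351, after 4 days of co-treatment.

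The inhibitors were also set against each other directly at equal dose and time. Of the member events 14 of 163 differed at 2 days, 19 of 179 at 4 days and 18 of 135 at 7 days, against 9.83%, 14.3% and 11.7% of all events. Introns higher with GSK591 than with MS023 numbered 6, 10 and 7 of 15 (all genes, 31.5%, 39.7% and 32%). HDAC10 introns 1 and 16, HDAC6 introns 6, 12 and 14 and HDAC1 intron 11 were in this set at all 3 times. With limma, HDAC6 intron 14 was lost at 2, 4 and 7 days and HDAC10 intron 1 at 2 days. The other calls of these introns held with limma. HDAC10 intron 16 differed by 0.270, 0.290 and 0.296 (adjusted p = 3.72e-05, 2.77e-09 and 2.78e-16), and HDAC6 intron 6 by 0.145, 0.118 and 0.103 (adjusted p = 5.06e-09, 1.46e-12 and 1.12e-08). HDAC7 exon 9 was lower with GSK591 at each time, with differences (GSK591 minus MS023) of -0.186, -0.242 and -0.197 (adjusted p = 2.47e-16, 2.89e-25 and 3.33e-08). These p-values depended on how groups whose reads were all of 1 form were counted over the events. With every library counted in the degrees of freedom they were 0.0668, 0.0677 and 0.174, and with limma 0.092, 0.0418 and 0.0909, so that only the 4-day difference was called, by limma.

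Co-treatment differed from GSK591 alone in 5 of 162 member events at 2 days and 6 of 201 at 4 days, against 3.39% and 5.08% of all events. The HDAC7 alternative 3′ splice site was higher with co-treatment by 0.0674 at 2 days (adjusted p = 0.0115, lost without library a of GSK591 2 days (0.11), library c of GSK591 2 days (0.0538), library a of GSK591 and MS023 2 days (0.125) or library b of GSK591 and MS023 2 days (0.0712)) and by 0.186 at 4 days (adjusted p = 2.24e-18). HDAC3 exon 12 was lower at 2 days (difference -0.0794, adjusted p = 4.21e-05). HDAC1 intron 11 was retained less with co-treatment than with GSK591 alone at 4 days (difference -0.0316, adjusted p = 0.0136, lost without library a of GSK591 4 days (0.0978) or library b of GSK591 and MS023 4 days (0.107)). No other member intron was called in these 2 comparisons. With limma or with every library counted in the degrees of freedom none of these calls held, and the 4-day difference of the HDAC7 splice site had adjusted p of 0.224 and 0.162. The DMSO groups of 7 and 4 days differed in 4 of 201 member events, against 5.8% of all events, and in none of the 15 introns. These were the HDAC4 alternative 3′ splice site, HDAC7 exon 2 and mutually exclusive exons in HDAC1 and HDAC5, the last 2 named after their values were seen.

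Genes that act with or beside the histone deacetylases, in lists chosen with earlier results of these data known, are given for comparison. Of 30 genes for partners of the deacetylase complexes and MEF2 factors, 44 of 505 tested events were called with 2 days of GSK591, 20 higher and 24 lower (8.71%, where all genes had 6.28%), and 92 of 543 with 4 days of co-treatment (16.9%, where all genes had 13.1%). Their median ΔΨ was -0.00096 and -0.00106. In the first comparison exon inclusion rose in SIN3B, a scaffold of the SIN3 complex, from 0.245 ± 0.0776 to 0.586 ± 0.0741 (adjusted p = 0.000106), and fell in CHD3, a NuRD remodeller, from 0.753 ± 0.0281 to 0.444 ± 0.0546 (adjusted p = 1.4e-31). Of the sirtuins, NAD-dependent deacetylases, 12 of 107 events were called with 2 days of GSK591, 4 higher and 8 lower, at a median ΔΨ of -0.000256. Inclusion fell in exons of SIRT7, from 0.848 ± 0.0310 to 0.489 ± 0.0055, and SIRT6, from 0.947 ± 0.0469 to 0.668 ± 0.144 (adjusted p = 6.15e-24 and 5.39e-06). Of the histone acetyltransferases, the enzymes that add acetyl groups, 7 of 107 were called, 3 higher and 4 lower, at a median of -0.00282, with an exon of CREBBP falling from 0.877 ± 0.00718 to 0.594 ± 0.160 (adjusted p = 3.91e-06) and a 5′ splice-site event of KAT6B rising from 0.790 ± 0.0961 to 1 ± 0 (adjusted p = 0.00618). The deacetylases themselves had 8 of 188 called in that comparison.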

How the data were processed

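Poly(A)-RNA libraries of 30 of the 96 samples (A549 cells) entered the analysis, and the nascent-RNA and other samples were not used here. Per the labels and the study's methods, reads were trimmed (Trim Galore 0.6.5), aligned to hg19 with STAR 2.4.2a, and splicing events were counted with rMATS by the authors. The 8 deposited tables give, per event and library, inclusion and skipping read counts (comma-joined for the 3 libraries of a group), effective lengths of both forms and the inclusion level, a fraction. They also hold the authors' p-value, FDR and inclusion difference for each comparison, which were not used. Picard 2.3.0 and deepTools 3.3.1 are named in the submitters' processing notes without a role. The 7-day tables were taken as set against DMSO 7 days. The inclusion level corrects both forms for effective length and library size cancels within an event. The recomputed level differed from the deposited one by at most 0.0005 in 6252703 values.

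All events of all genes were fitted in R 4.3.3 with limma 3.58.1. Each event with at least 10 reads in all 6 libraries was fitted by a quasi-binomial logistic model. Its Pearson dispersion was moderated within event type and held at 1 or above, and tested by F with Benjamini-Hochberg adjustment within type. A group whose reads were all of 1 form gave no degrees of freedom, a choice made after seeing the data. The model was tested on simulated counts of retained introns and alternative 3′ splice sites only, for GSK591 and MS023 at 2 days. These counts were drawn with the model's own moderated dispersion. Skipped exons, mutually exclusive exons and alternative 5′ splice sites were not simulated. Alternatives were limma on log2 odds with 0.5 added to each form, other read minimums (20 and 1), no floor, adjustment over all types and leaving out each library. 14 comparisons were made, and comparisons with the same DMSO group share its libraries. Members and lists were chosen with earlier results of these data known. Events were named as, per gene, at most 3 with the largest ΔΨ of at least 0.05 among those called against DMSO, after reducing events on 1 segment to that with the most reads, or else the tested event with the most reads. Positions and splice sites were read from an hg19 genome with a GENCODE annotation lifted to that build. Intervals for single libraries are not given, and PCR duplicates may be among the reads, which carry no molecular identifiers.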

Additional observations from a re-analysis of the deposited data

Results flagged for a closer look

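Direct comparisons of GSK591 with MS023 at equal dose and time were looked at again because the response differed between the inhibitors by a test of the difference itself, and 30 differences passed among the events named by rule and the retained introns (GSK591 minus MS023, mean Ψ, same model as in the report), of the 51 called over all member events at the 3 times. Over all genes 9.83%, 14.3% and 11.7% of events were called at 2, 4 and 7 days. Of all retained introns 31.5%, 39.7% and 32% were called higher with GSK591, so such differences are not particular to these genes. For HDAC10, intron 16 differed by 0.270, 0.290 and 0.296 at 2, 4 and 7 days, and intron 1 by 0.293, 0.366 and 0.331. Its intron 11 differed by 0.212 at 4 days and 0.152 at 7 days, and its intron 15 by -0.126 at 7 days, the sole intron of these that was lower with GSK591. For HDAC6, intron 6 differed by 0.145, 0.118 and 0.103, intron 12 by 0.181, 0.194 and 0.136, and intron 14 by 0.0907, 0.154 and 0.130. HDAC6 intron 21 differed at 4 days by 0.0812, and the HDAC6 alternative 5′ splice site at 2 days by -0.129. HDAC1 intron 11 differed by 0.0480, 0.0676 and 0.0337. HDAC3 introns 4 and 8 differed at 4 days, by 0.123 and 0.0232. HDAC7 exon 9 differed by -0.186, -0.242 and -0.197, and the HDAC7 alternative 3′ splice site by 0.0411 at 2 days and 0.155 at 7 days. These comparisons do not use the DMSO libraries. The events named by rule were, however, mostly chosen by their calls against DMSO, which rest on the same inhibitor libraries. The differences are therefore not separate support for those calls.

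Which of these calls rest on single libraries is as follows. HDAC6 intron 14 at 2 days was lost without library b of GSK591 2 days (0.3), library c of GSK591 2 days (0.0581), library a of MS023 2 days (0.0607), library b of MS023 2 days (0.0511) or library c of MS023 2 days (0.0634), and at 7 days without library b of GSK591 7 days (0.0804), adjusted p in brackets. The HDAC6 alternative 5′ splice site was lost without library b of GSK591 2 days (0.0752), library c of GSK591 2 days (0.0736), library a of MS023 2 days (0.13), library b of MS023 2 days (0.115) or library c of MS023 2 days (0.103). HDAC3 intron 8 was lost without library c of GSK591 4 days (0.135), library b of MS023 4 days (0.0854) or library c of MS023 4 days (0.0673), HDAC6 intron 21 without library b of GSK591 4 days (0.11) or library a of MS023 4 days (0.105), HDAC10 intron 11 at 7 days without library c of MS023 7 days (0.0986), and the HDAC7 alternative 3′ splice site at 2 days without library b of GSK591 2 days (0.18) or library a of MS023 2 days (0.131). With every library counted in the degrees of freedom, HDAC7 exon 9 was lost at 2, 4 and 7 days (0.0668, 0.0677 and 0.174), the HDAC7 alternative 3′ splice site at 2 and 7 days (0.132 and 0.0581), HDAC10 intron 1 at 2 days (0.0626), HDAC6 intron 14 at 2 and 7 days (0.0873 and 0.0757), HDAC3 intron 8 at 4 days (0.055) and the HDAC6 alternative 5′ splice site at 2 days (0.0894). Limma lost HDAC6 intron 14 at 2, 4 and 7 days, HDAC10 intron 1 at 2 days and HDAC10 intron 11 at 7 days. It also lost HDAC3 intron 8 and HDAC6 intron 21 at 4 days. HDAC7 exon 9 and the HDAC7 alternative 3′ splice site were lost with limma at 2 and 7 days.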

How the results depend on the processing

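No named difference or median reversed under the alternatives run. Counts of calls cannot reverse, and with limma several of them fell to 0, as given below. Over all alternatives, 141 counts stayed within 1.5 times the main count, 434 named differences and 53 medians stayed within the spread between libraries, and 27, 30 and 11 moved further. With limma on log2 odds the number of called member events was 3 (main 8), 0 (2) and 7 (25) for GSK591, MS023 and co-treatment at 2 days, 7 (11), 0 (3) and 13 (31) at 4 days, and 3 (9) and 0 (2) for GSK591 and MS023 at 7 days. At an unadjusted p under 0.05 limma gave 22 of 209, 23 of 223 and 18 of 175 tested events for the 3 counts of 0 with MS023. Limma gave 6 (14) and 11 (18) for GSK591 against MS023 at 2 and 7 days, 0 (5) and 0 (6) for co-treatment against GSK591 (24 of 162 and 32 of 201 at an unadjusted p under 0.05) and 2 (4) between the DMSO groups. The share of all genes at that unadjusted threshold was not computed, so these unadjusted counts are not read as a response of the family. With at least 20 reads, MS023 at 2 days had 1 (2). Counting every library in the degrees of freedom, an alternative chosen after seeing the data, gave 4 (14), 10 (19) and 7 (18) for GSK591 against MS023, 0 (5) and 0 (6) for co-treatment against GSK591 and 2 (4) between the DMSO groups. Leaving out 1 library at a time gave 6 to 9, 2 to 2 and 19 to 21 calls for GSK591, MS023 and co-treatment at 2 days, 10 to 13, 1 to 3 and 21 to 25 at 4 days, and 6 to 11 and 1 to 3 for GSK591 and MS023 at 7 days. For GSK591 against MS023 it gave 8 to 16, 16 to 20 and 13 to 14, for co-treatment against GSK591 3 to 6 and 3 to 7, and between the DMSO groups 3 to 6. The lowest values came without DMSO 4 days library b (MS023 at 4 days, 1), DMSO 7 days library a (MS023 at 7 days, 1), MS023 2 days library a (8) and GSK591 2 days library b (9) for the inhibitors at 2 days, GSK591 2 days library b or co-treatment 2 days library b (3), and GSK591 4 days library a (3). Where the adjustment ran over all event types, where events with at least 1 read were tested and where the dispersion had no floor, the number of calls stayed within 1.5 times the main count in all 14 comparisons. A negative binomial count model was not run. No paired analysis was possible because the columns carry no replicate numbers. Depth limits the low events most, and HDAC10, HDAC4 and HDAC11 exon events had under 30 reads in some libraries.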
